A study of Mus musculus with 8 samples.

Results

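Neutrophil granule genes encode the antimicrobial proteins and proteases that neutrophils make in the bone marrow and store in granules or in the cytosol. The 10 genes described here are Ltf, Camp, Ngp, Lcn2, Mmp8, Mmp9, Mpo, Elane, S100a8 and S100a9, out of 21368 genes with a named probe on the array. The family was selected on measured values, since the higher levels of Ltf and Camp in Hydroxyurea than in Control mice led to its choice. Values of the members in that comparison are therefore a description without a test. All 10 had a probe, 9 passed the filter on dim probes (Mmp8 did not), and 7 were well above background on all 8 arrays.

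Hippocampal RNA came from 8 female mice, with 1 single-colour array per mouse. The Hydroxyurea group held 4 mice that drank hydroxyurea, an inhibitor of ribonucleotide reductase, at 45 mg/kg/day over 10 weeks. Mice 1 and 2 of that group were 24 weeks old at the end and mice 3 and 4 were 19 weeks old. The Control group held 4 untreated mice, all 19 weeks old. All 8 were nontransgenic littermates of the APPswe695/PSEN1dE9 line on a C57BL/6J background, so no mouse of either group carried the transgenes. Cages were shared, and the labels do not say by which mice. All Hydroxyurea arrays lay in row 2 of the slide and all Control arrays in row 1, so slide row and treatment cannot be told apart.

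During granulocyte maturation the granule proteins are made in waves. Myeloperoxidase (Mpo) and neutrophil elastase (Elane) go into the azurophil granules of promyelocytes. Lactoferrin (Ltf), cathelicidin (Camp), neutrophilic granule protein (Ngp), lipocalin 2 (Lcn2) and collagenase (Mmp8) go into the specific granules of later stages, and gelatinase B (Mmp9) into gelatinase granules. S100a8 and S100a9 form calprotectin, which is held in the cytosol. Most granule transcripts are abundant in marrow and fade in circulating neutrophils, while Lcn2, Mmp9 and the S100 pair can also be made by other cells, astrocytes and epithelia among them for Lcn2. A healthy hippocampus holds few neutrophils.

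The genes lie on 5 chromosomes. Camp, Ngp and Ltf share a stretch of chromosome 9, with 8 protein-coding genes between Camp and Ngp and 20 between Ngp and Ltf. Mmp8 is also on chromosome 9, S100a8 and S100a9 are neighbours on chromosome 3 with 0 protein-coding genes between them, and Lcn2 and Mmp9 are on chromosome 2. Mpo is on chromosome 11 and Elane on chromosome 10. C/EBP epsilon, a transcription factor of late granulocyte maturation, acts on the specific granule genes. The letters TTGCNNAA, a C/EBP-type sequence, were therefore sought on both strands in the 250 bases before each gene's start. RefSeq promoters were at hand for 9 of the 10 genes (not Mmp9). The letters were in 5 of those 9 windows (Ltf, Ngp, S100a9, Lcn2 and Mmp8) and in 9.6% of 32851 mouse promoter windows of that length. GGAAGT, the core of an ETS-type sequence, was in 5 of the 9 against 19.7% of all windows, and TATAAA was in 1 of the 9 (S100a8) against 12.4%. In the members no match of one string overlapped a match of another, and a match is a description and no evidence of binding.

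The 100 bases before the start of the 3 linked specific granule genes are shown because Ltf and Camp are the members whose groups did not overlap and Ngp lies between them. They are from RefSeq on build GRCm38.p6, 5′ to 3′ on the strand of the gene, with capitals marking TTGCNNAA on either strand.
Ltf, chr9:111019192-111019291, plus strand: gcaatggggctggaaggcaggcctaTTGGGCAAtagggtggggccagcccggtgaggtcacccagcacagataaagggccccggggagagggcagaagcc
Ngp, chr9:110419708-110419807, plus strand: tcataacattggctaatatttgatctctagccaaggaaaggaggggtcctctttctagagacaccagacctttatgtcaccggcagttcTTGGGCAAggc
Camp, chr9:109849457-109849556, minus strand: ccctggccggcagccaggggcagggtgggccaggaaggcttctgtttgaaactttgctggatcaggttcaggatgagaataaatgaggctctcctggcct
Ltf and Ngp carried the same 8 letters, TTGGGCAA, in this window, and Camp had no match in it.

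Ltf, Camp, Ngp, S100a8, S100a9 and Elane had higher means in Hydroxyurea than in Control hippocampi, Mpo was level, and Lcn2 and Mmp9 had lower means. The groups did not overlap for Ltf and Camp, and they overlapped for the other 8. Levels are given as log2 processed signal after subtracting the 75th percentile of each array, so 0 is the level of a fairly bright probe and a negative value is a dimmer one. Differences are Hydroxyurea minus Control on that log2 scale, with the standard error (SE) of the limma fit across all genes tested. In tissue RNA, fewer cells of a type and less RNA per cell cannot be told apart.

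Ltf, the iron-binding protein of specific granules, had levels of -4.37, -4.44, -4.45 and -4.13 in Hydroxyurea mice 1 to 4, against -4.86, -4.87, -5.26 and -5.14 in Control mice 1 to 4. Every Hydroxyurea mouse was above every Control mouse, and the gap between the nearest mice was about as wide as the range of the Control group. The means were -4.35 ± 0.15 in Hydroxyurea and -5.03 ± 0.20 in Control (SD, n = 4 each). The difference was 0.69 ± 0.12 (SE), a 1.61-fold higher level. The Ltf spot was well above background on all 8 arrays but dim, with a pixel signal 3.95, 2.5, 3.24 and 4.11 times its local background in Hydroxyurea and 3.23, 2.42, 2.78 and 2.42 times in Control. On that ratio, which has no scaling between arrays, the groups overlapped. The scanner software's own error for the spot was 11.3% to 17.3% of its signal.

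The scale decides how large the Ltf difference is. Its processed intensity was 92.8, 48.4, 76.8 and 123.2 in Hydroxyurea mice against 62.4, 57.3, 63.1 and 54.3 in Control mice. Before scaling, 3 of the Hydroxyurea arrays lay above all Control arrays and Hydroxyurea 2 lay below all of them. That array was the dimmest of the 8, with a 75th percentile of 1052.3, where the other Hydroxyurea arrays had 1679.5 to 2162.1 and the Control arrays 1677.1 to 2417.3. The difference was 0.45 without scaling, where the median of all genes lay at -0.24, which leaves 0.69 relative to that median by construction, since scaling takes 1 constant off each array. With a background model fitted to the spot signals (normexp, offset 50, then quantile normalization) it was 0.22. As signal over local background, scaled by its 75th percentile on each array, it was 0.48. Normexp here adds 50 to each signal, and the ratio has no background subtracted. Either narrows the log2 difference of a dim spot by construction.

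Camp, the precursor of the cathelicidin antimicrobial peptide, had levels of -1.76, -1.88, -1.82 and -1.89 in Hydroxyurea mice, against -2.11, -2.19, -2.38 and -2.12 in Control mice. The 4 Hydroxyurea values lay close together and all above the Control values. The means were -1.84 ± 0.06 in Hydroxyurea and -2.20 ± 0.13 in Control (SD, n = 4 each), a difference of 0.36 ± 0.08 (SE), or 1.29-fold. Its spot stood 7.58 to 13.5 times above local background in Hydroxyurea and 10.6 to 12.4 times in Control. A second Camp probe gave -2.27, -2.01, -2.13 and -2.29 in Hydroxyurea mice and -2.41, -2.26, -2.66 and -2.39 in Control mice. On the second probe the difference was 0.25 ± 0.10 (SE) and the groups overlapped, since Control 2 lay above Hydroxyurea 1 and 4. The Camp difference was 0.13 without scaling and -0.03 as signal over local background without scaling. Relative to the median of all genes in those settings it was 0.37 and 0.10.

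**Figure D1:**
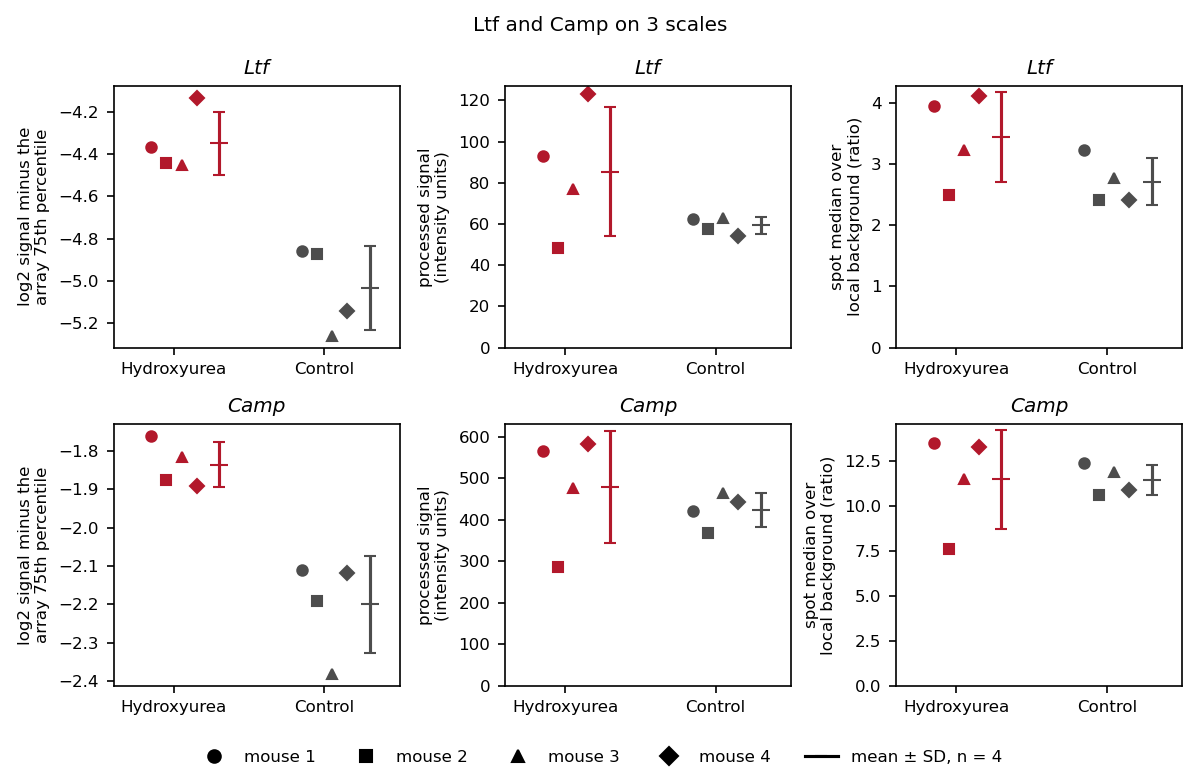
Ltf and Camp in every mouse on 3 scales: the scaled log2 level, the processed intensity and the pixel signal over local background. Points are mice and bars are the mean ± SD of 4 mice, with Hydroxyurea left of Control. On the scaled level the groups are apart for both genes, and on signal over background they overlap for both.

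Ngp, a cystatin-like protein of specific granules, lay at the edge of detection. Its levels were -5.37, -4.53, -5.57 and -4.73 in Hydroxyurea mice and -5.76, -5.82, -5.34 and -5.28 in Control mice. Hydroxyurea 2 and 4 were above all Control mice, and Hydroxyurea 1 and 3 were below Control 3 and 4. The difference was 0.50 ± 0.25 (SE, n = 4 each). It was 0.21 with 1 common floor on all arrays, 0.26 with normexp, 0.27 without scaling and 0.33 without Hydroxyurea 2. The spot was well above background on 2 of the 4 Hydroxyurea arrays and on 3 of the 4 Control arrays.

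Lcn2, the siderophore-binding lipocalin, had levels of -2.55, -2.14, -2.30 and -1.63 in Hydroxyurea mice and -2.42, -2.21, 0.39 and -2.59 in Control mice. Control 3 stood far above the other 7 mice, with a processed intensity of 3178 where the other Control mice had 318.4 to 361.8. The Hydroxyurea mice had 238.5 to 700.2. The difference was -0.44 ± 0.64 (SE) with all mice and 0.26 without Control 3, so this mouse decided its sign. Within the Hydroxyurea group mouse 4 was the highest.

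Mmp8, neutrophil collagenase, was at or under the detection limit. It was well above background on 0 of 4 Hydroxyurea arrays and on 1 of 4 Control arrays, that of Control 3, and it was not tested. Its levels ran from -7.63 to -6.43 in Hydroxyurea and from -7.99 to -5.94 in Control, and no fold is given.

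Mmp9, the gelatinase, was printed in 10 spots per array, which shows the error of a dim spot directly. Its probe levels were -5.64, -6.24, -5.40 and -5.30 in Hydroxyurea mice and -5.35, -5.71, -5.44 and -5.66 in Control mice. The groups overlapped, with a difference of -0.10 ± 0.20 (SE). Of the 10 spots, 0, 1, 3 and 10 were well above background on the Hydroxyurea arrays, against 7, 9, 10 and 10 on the Control arrays. The SD among all 10 spots of 1 array ran from 0.18 to 0.71 in Hydroxyurea and from 0.13 to 0.32 in Control. The 0.71 is that of Hydroxyurea 2 and takes in a spot at -4.55 that was flagged as an outlier. That spot was left out of the probe level, and it was the only spot well above background on that array. The probe as a whole counted as well above background on 1 Hydroxyurea array and on 4 Control arrays.

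S100a8 and S100a9, the calprotectin subunits, went together mouse by mouse. S100a8 had levels of -1.82, -1.94, -1.99 and -1.34 in Hydroxyurea mice and -2.31, -2.98, -1.72 and -2.28 in Control mice. S100a9 had 0.16, -0.11, -0.12 and 0.51 in Hydroxyurea mice and -0.75, -1.13, 0.24 and -0.55 in Control mice. For both genes Control 3 lay inside the Hydroxyurea range and the other Control mice lay below it. The differences were 0.55 ± 0.26 for S100a8 and 0.66 ± 0.29 for S100a9 (SE, n = 4 each). They were 0.32 and 0.42 without scaling and 0.92 and 1.08 with the negative control level as a covariate, and S100a8 was 0.34 without Control 2.

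Across the 8 mice S100a8 and S100a9 correlated with r = 0.98 (exact permutation p = 2.48e-05, the smallest it can give, adjusted 0.000372 over 15 relations). Spearman's rho was 1.0 (exact permutation p = 4.96e-05, adjusted 0.000744), and r was 0.99 without Control 2 and Hydroxyurea 4, the mice farthest from the S100a8 median. A group of 4 is too small for a correlation within it. Pairings were permuted over all 8 mice without regard to group. Both S100 genes and the choroid plexus score had higher means in Hydroxyurea, so their relations also take in that shared group difference. None of the other 14 relations, among S100a8, S100a9, Lcn2, Elane and Mpo and with a choroid plexus score, had an adjusted p under 0.25 in the exact permutation test. Lcn2 and Elane had r = -0.77 (exact permutation p = 0.0797, adjusted 0.299), which turned to 0.76 without Control 3 and Hydroxyurea 4, and rho was -0.10 (exact permutation p = 0.84). Ltf and Camp were kept out of these relations because their groups were separate.

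Choroid plexus and ependymal marker genes were scored beside the S100 pair. A mouse's score for a list is the mean, over its genes, of the log2 level minus the mean of that gene over all 8 mice. The choroid plexus score was -1.08, 0.89, 0.13 and 2.62 in Hydroxyurea mice and -1.99, -1.02, 0.77 and -0.32 in Control mice, so Hydroxyurea 4 was highest and Control 3 was the highest of its group, as for both S100 genes, while Hydroxyurea 1 was the lowest of its group in this score and not for either S100 gene. All 8 choroid plexus genes were well above background on all arrays and all 8 had higher means in Hydroxyurea, with a median of 1.30. Their SE ran from 0.60 for Kl to 1.16 for Folr1. All 6 ependymal genes were higher too, with a median of 0.51. Ependymal scores were -0.60 to 1.42 in Hydroxyurea against -1.40 to 0.62 in Control, and their relation to the S100 genes was not tested. Of all genes tested, 48.7% had a higher mean. In either list 0 genes had a limma p under 0.05, adjusted or unadjusted, and the groups overlapped for every gene. The choroid plexus score correlated with S100a9 at r = 0.73 (exact permutation p = 0.0384, adjusted 0.25) and rho 0.67 (exact permutation p = 0.0831, adjusted 0.312). Its correlation with S100a8 was r = 0.71 (exact permutation p = 0.05, adjusted 0.25) and rho 0.67 (exact permutation p = 0.0831, adjusted 0.312). Without Control 1 and Hydroxyurea 4 the r was 0.49 for S100a9 and 0.55 for S100a8. The part of these cells in the S100 differences was not tested.

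Mpo, the heme peroxidase of azurophil granules, had levels of -4.51, -4.00, -3.99 and -4.17 in Hydroxyurea mice and -4.41, -3.92, -4.26 and -4.04 in Control mice. The groups overlapped fully, with a difference of -0.01 ± 0.15 (SE) and a 95% interval of -0.36 to 0.33. Elane, the serine protease of the same granules, had levels of -0.23, 0.12, -0.25 and -0.35 in Hydroxyurea mice and -0.23, -0.23, -0.90 and -0.44 in Control mice. Hydroxyurea 2 was the highest and Control 3 the lowest, and the other 6 mice were mixed. The Elane difference was 0.27 ± 0.17 (SE), with a 95% interval of -0.12 to 0.66. It was 0.12 without Control 3, 0.17 without Hydroxyurea 2, 0.03 without scaling and -0.02 with the negative control level of the array as a covariate.

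**Figure D2:**
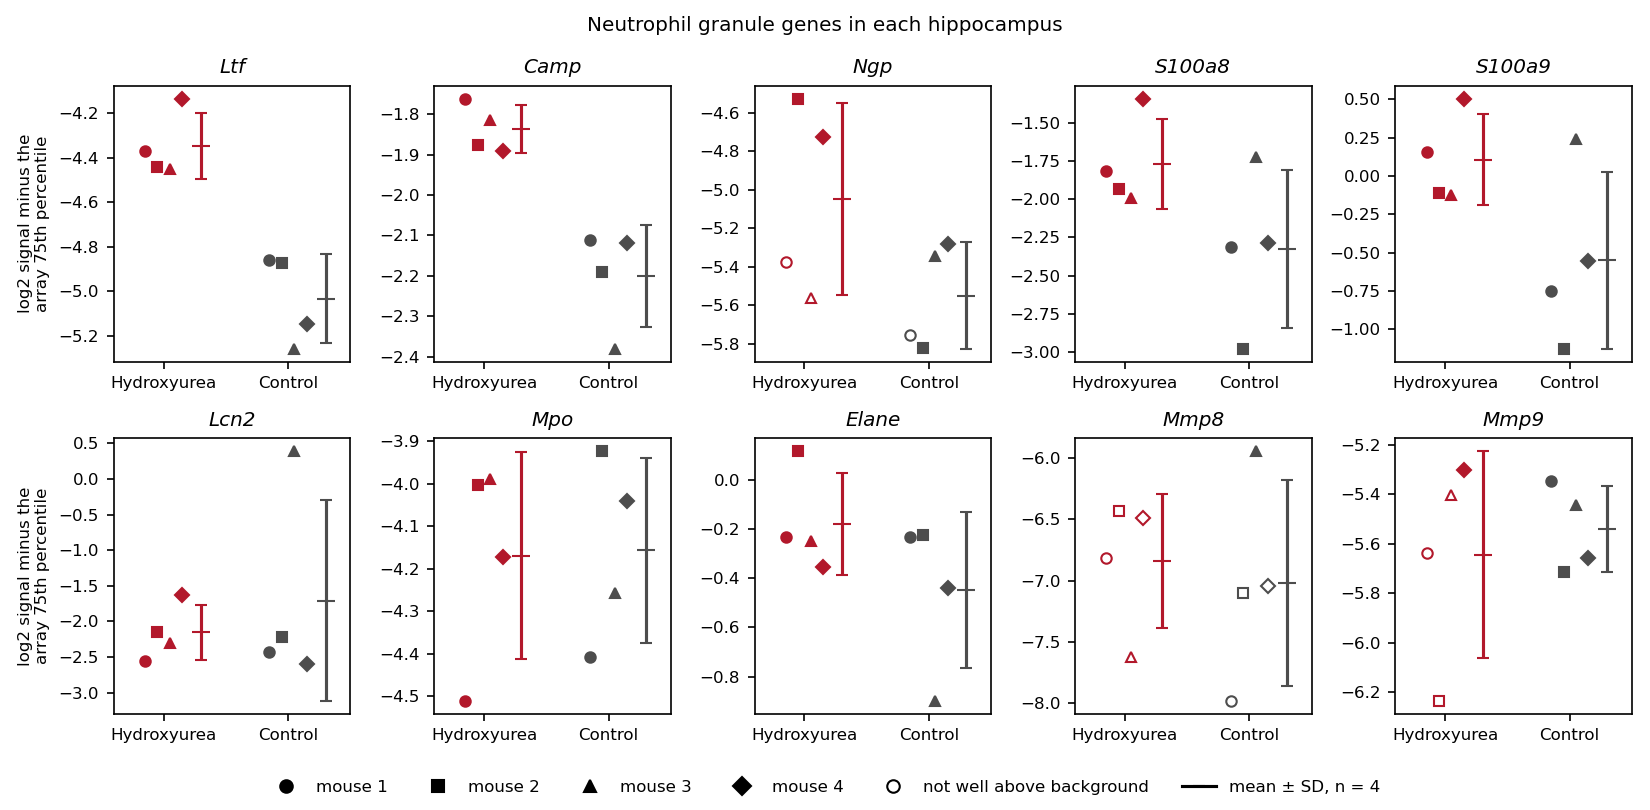
Scaled log2 level of each of the 10 members in every mouse, with Hydroxyurea mice left of Control mice. Filled points are arrays on which the probe was well above background and open points are those on which it was not. Only Ltf and Camp have groups that do not overlap, and Control 3 stands apart for Lcn2.

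As a family, 7 of the 10 members had a higher mean in Hydroxyurea and 3 a lower one, with a median difference of 0.32, where 54.8% of the 21368 genes with a probe had a higher mean and the median was 0.02. Among the 9 members tested, which leaves out Mmp8, 6 were higher and 3 lower, with a median of 0.36, against 48.7% higher and a median of 0.00 for the 16618 genes tested. The groups did not overlap, with Hydroxyurea higher, for 2 of the 9 members tested and for 2.38% of all genes tested. With Hydroxyurea lower they did not overlap for 0 members and for 5.11% of all genes tested. These counts come from the contrast that led to the choice of the family, and nothing is read from them. With limma, 0 members and 0% of all genes tested had an adjusted p under 0.05. At an unadjusted limma p under 0.05, 3.53% of all genes were higher in Hydroxyurea and 6.36% lower.

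By compartment the members were mixed. Of the 5 specific granule genes, Ltf, Camp and Ngp had higher means, Lcn2 turned with 1 mouse, and Mmp8 could not be measured. Of the 2 azurophil genes, Elane had a higher mean and Mpo did not. The Elane probe was far brighter, with means of -0.18 in Hydroxyurea and -0.45 in Control, where Mpo had -4.17 and -4.16. Ctsg, another azurophil gene, had -4.47 and -5.15. Whether the Elane signal comes from neutrophils was not tested. Both cytosolic S100 genes had higher means, and Mmp9 of the gelatinase granules did not.

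A list of 18 other granule genes was read beside the members. Of its genes 17 had a probe and 13 were tested, of which 10 had higher and 3 lower means in Hydroxyurea, with a median of 0.13 against 0.00 over all genes tested. With limma, 0 of them had an adjusted p under 0.05. Ctsg, cathepsin G of azurophil granules, was the only 1 of the 13 tested whose groups did not overlap. Of all genes tested, 2.38% did not overlap with Hydroxyurea higher and 5.11% with Hydroxyurea lower. The Ctsg means were -4.47 ± 0.31 in Hydroxyurea and -5.15 ± 0.24 in Control (SD, n = 4 each). Its difference was 0.68 ± 0.18 (SE, limma unadjusted p = 0.00473, adjusted 0.452), and it was well above background on 4 Hydroxyurea and 3 Control arrays. Chil3, a chitinase-like protein of granulocytes and macrophages, differed by 0.39 ± 0.17 and Itgam, the integrin CD11b that microglia also carry, by 0.21 ± 0.18. Adam8, a membrane metalloprotease, differed by -0.59 ± 0.18 (SE, limma unadjusted p = 0.01, adjusted 0.464). Lyz2 was close to level, at -0.02 ± 0.24. Cd177 differed by -0.04 ± 0.24 but was well above background on only 1 Hydroxyurea and 3 Control arrays.

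Genes that mark neutrophils as cells were mostly dim. Of 19 with a probe, 6 were well above background on all 8 arrays, 9 were tested and 4 were well above background on 0 arrays. Stfa1, Stfa2l1 and Clec4e were among those dim genes. Cxcr2, the chemokine receptor of mature neutrophils, and Retnlg were each well above background on 1 Hydroxyurea and 2 Control arrays. Among the 9 tested, 4 had higher and 5 lower means in Hydroxyurea, with a median of -0.03, and 0 had a limma adjusted p under 0.05. Trem1, a receptor that amplifies myeloid activation, differed by 0.33 ± 0.18 (SE, limma adjusted p = 0.563). Stfa3 differed by 0.77 ± 0.88, set by Hydroxyurea 1 at -2.30 where the other Hydroxyurea mice had -6.52 to -5.70. It was well above background on only 1 Hydroxyurea and 3 Control arrays. Il1r2 differed by 0.28 ± 0.32, Asprv1 by -0.12 ± 0.08 and Stfa2 by -0.23 ± 0.20. Nlrp12 was well above background on 0 Hydroxyurea and 4 Control arrays, so its fold is left out. The score of the list ran from -0.18 to 0.42 in Hydroxyurea, the highest in Hydroxyurea 1, the mouse with high Stfa3, and from -0.12 to 0.02 in Control.

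Of 10 factors that drive granulocyte formation or recruitment, 3 were tested, with 1 higher and 2 lower means in Hydroxyurea and 0 limma adjusted p under 0.05. Cxcl5, a neutrophil chemokine, differed by 0.48 ± 0.73, Cebpa by -0.10 ± 0.11 and Csf3r, the G-CSF receptor that microglia also express, by -0.08 ± 0.18 (SE, n = 4 each). Cebpe itself was well above background on 1 Hydroxyurea and 2 Control arrays, and Gfi1, Csf3, Cxcl2 and Il17a on 0 arrays. All 10 neuronal markers, all 8 astrocyte markers and all 8 microglial markers were well above background on all 8 arrays. The same was true of 15157 of the 21368 genes with a probe. No other brain region was compared, so the hippocampal label was not tested. Markers of other blood cells gave no limma adjusted p under 0.05. Among those tested, the groups did not overlap for Itga2b, the platelet integrin, and Cd3e, a T cell receptor subunit, both higher in Hydroxyurea. Of all genes tested, 2.38% did not overlap with Hydroxyurea higher and 5.11% with Hydroxyurea lower. Among lymphocyte genes too dim to be tested, Ms4a1 did not overlap with Hydroxyurea higher and Cd79a with Hydroxyurea lower. Itga2b differed by 0.66 ± 0.19 (SE, limma unadjusted p = 0.00815, adjusted 0.452) and was well above background on 2 Hydroxyurea and 3 Control arrays. Cd3e differed by 0.30 ± 0.11 (SE, limma unadjusted p = 0.0244, adjusted 0.484). Other genes of these lists were mixed, with overlapping groups. Cd4 differed by 0.28 ± 0.15, Ccr7 by 0.55 ± 0.19, Lck by 0.00 ± 0.08 and Cd3g by -0.24 ± 0.42. Among platelet genes, Pf4 differed by 0.05 ± 0.21, Gp9 by 0.07 ± 0.10 and Ppbp by 0.68 ± 0.81. Nothing is read for T cells or platelets. Higher and lower means of the blood cell markers in Hydroxyurea numbered 7 and 1 for erythroid genes (median 0.08) and 1 and 6 for monocyte genes (median -0.14). They numbered 4 and 2 for lymphocyte genes (median 0.19) and 5 and 1 for platelet and mast cell genes (median 0.06). Erythroid scores ran from -0.49 to 0.53 in Hydroxyurea and from -0.34 to 0.24 in Control.

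Since Ltf, Ngp, Mmp8 and Mmp9 lie near the floor of the array, the level of that floor was compared. The median level of the negative control spots was -7.38, -7.20, -7.61 and -8.31 in Hydroxyurea and -7.89, -8.28, -8.56 and -8.77 in Control, a difference of 0.74 (exact permutation p = 0.0857, adjusted 0.286 over 4 measures). Hydroxyurea 4 lay within the Control range and the other 3 above it. The local background around all spots differed by 0.19 (exact permutation p = 0.514, adjusted 0.514) and that around the member spots by 0.20 (exact permutation p = 0.457, adjusted 0.514). The share of probes well above background averaged 62.8% ± 4.34 in Hydroxyurea and 69.0% ± 6.12 in Control (SD, n = 4 each), a difference of -6.21 points (exact permutation p = 0.143, adjusted 0.286). As pixel signal over local background, a measure chosen after seeing the data, the negative control spots differed by 0.058 (exact permutation p = 0.514). None of the 4 measures passed, with 0.0286 the smallest p that 4 against 4 mice allow. Spots whose signal was not significantly positive carry a processed value of 0.992 to 0.997 times their own error estimate, so the floor of this scale is an error and not a brightness.

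**Figure D3:**
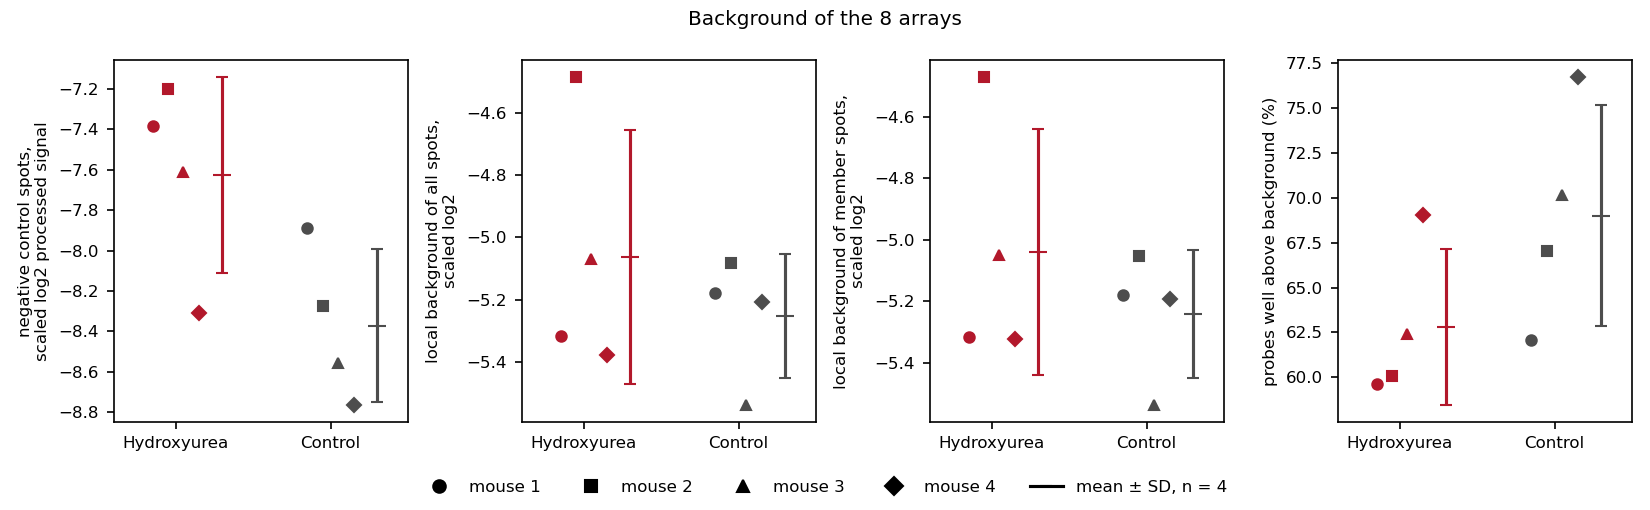
Negative control level, local background of all spots and of member spots (scaled log2) and percent of probes well above background for each mouse, with Hydroxyurea left of Control and bars at the mean ± SD of 4 arrays. The negative control level is higher in 3 of the 4 Hydroxyurea arrays than in every Control array, and the local background overlaps between the groups.

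Genes at the floor as a whole were higher in Hydroxyurea on this scale. All 21368 genes with a probe were split into 10 equal groups by mean level. The dimmest, in which 0 genes passed the filter and 0 members lie, had a median difference of 0.66 with 96.5% of genes higher. The next, which holds Mmp8, had 0.14. In the third, which holds Ltf, Ngp and Mmp9, the median was 0.06 with an interquartile range of -0.18 to 0.33. In the fifth, with Camp, Lcn2 and S100a8, the median was 0.03 (-0.08 to 0.15), and in the sixth, with S100a9 and Elane, it was 0.00 (-0.09 to 0.11). With the processing reported, Ltf, Camp, Ngp, S100a8, S100a9 and Elane lay above the upper quartile of genes of their own brightness, and Lcn2, Mpo, Mmp8 and Mmp9 did not. These positions come from the contrast that led to the choice of the family, and nothing is read from them.

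Olfactory and vomeronasal receptors, which work mainly in the nose, were read as families that lie mostly at the floor. Of 1075 olfactory receptor genes with a probe, 77.6% had a higher mean in Hydroxyurea, with a median of 0.42, and of 256 vomeronasal receptor genes 79.3%, with a median of 0.52. Among those that passed the filter the median was 0.13 for 163 olfactory and 0.06 for 39 vomeronasal receptor genes.

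**Figure D4:**
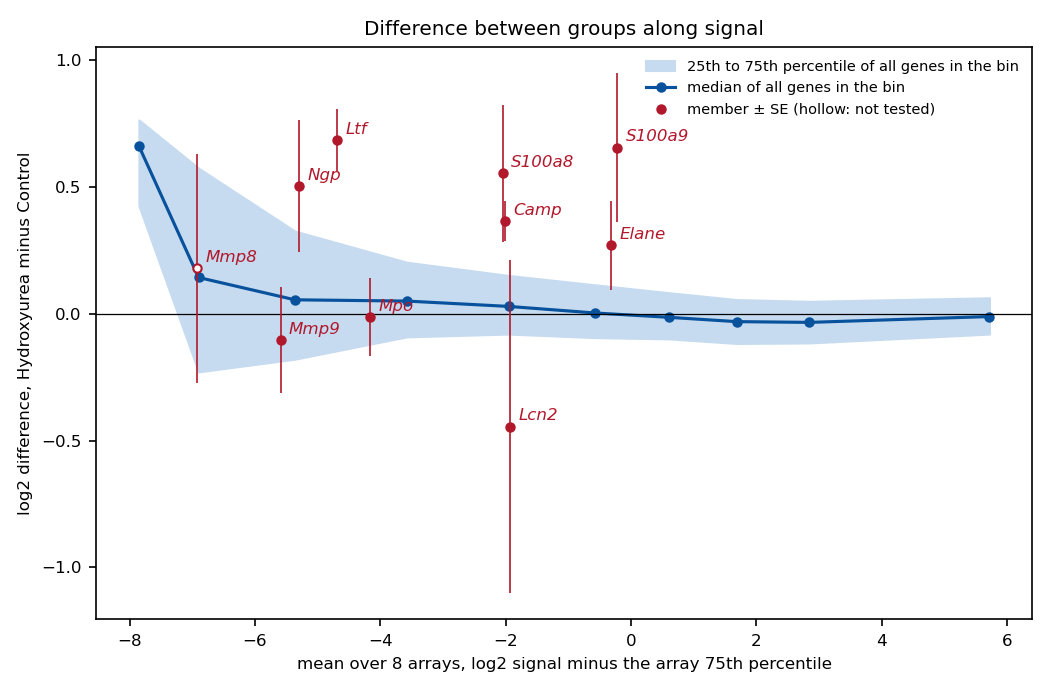
Hydroxyurea minus Control log2 difference against mean level over 8 arrays, with the median and interquartile range of 10 equal groups of genes and the 10 members as named points. The median is 0.66 in the dimmest group and between -0.03 and 0.14 in the others. Ltf and Camp, whose higher levels led to the choice of the family, lie above the interquartile range of their groups.

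Background values at the Ltf and Camp spots stand beside these. The raw local background at the Ltf spot was 44, 42, 41 and 45 in Hydroxyurea mice and 47, 49, 46 and 48 in Control mice, lower on every Hydroxyurea array. These raw values have no scaling between arrays, and they are not the floor of the scaled level, which is an error. After scaling, the local background of member spots was highest in Hydroxyurea 2, at -4.47. With the negative control level as a covariate the Ltf difference was 0.69 and the Camp difference 0.31, and with 1 common floor set on all arrays they were 0.61 and 0.36. Both were 0.22 with normexp, and as signal over local background without scaling they were 0.33 and -0.03. For a dim spot such as that of Ltf, the normexp offset and a ratio without subtraction narrow a log2 difference by construction. The Camp spot was brighter, and its difference was also smaller with normexp and 0.12 as the scaled ratio, so it too depended on the treatment of background. The reason for Camp was not tested. The part of the floor in these differences was not tested. At the Camp spot the local background was 51, 49, 50 and 54 in Hydroxyurea and 46, 45, 48 and 50 in Control, so there it ran slightly higher. Among 42 probes with 10 or more spots whose level fell in the Ltf range, the median SD among spots of 1 array was 0.20 (interquartile range 0.16 to 0.28), where the SD of Ltf between mice was 0.15 in Hydroxyurea and 0.20 in Control.

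Age could be examined only within the treated mice. Between Hydroxyurea mice of 24 and 19 weeks (n = 2 each), limma gave 0 genes with an adjusted p under 0.05, which is 0% of those tested, and 210 higher and 239 lower at an unadjusted p under 0.05. All 9 tested members had a limma adjusted p of 1. Nothing is read for Mmp9, whose probe was not well above background in either mouse of 24 weeks and in 1 of the 2 mice of 19 weeks. Against the Control mice, all 19 weeks old, Ltf was 0.63 higher in Hydroxyurea mice of 24 weeks and 0.74 higher in those of 19 weeks. For Camp the values were 0.38 and 0.35. In the comparison with mice of 24 weeks, age and treatment cannot be told apart. The age difference was -0.11 ± 0.17 for Ltf and 0.03 ± 0.12 for Camp (SE).

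Genes whose level followed each member most closely over the 8 arrays were ranked by Pearson's r among 16584 genes, as a description, since the arrays share the group difference. For Ltf they were Eri3, Furin and Galnt2 (r = 0.956, 0.955 and 0.954), and for Camp they were Brf2, Sars2 and Mau2 (r = 0.967, 0.965 and 0.956). No other member of the family was among these. For S100a8 they were S100a9, Sult1c2 and Mapk13 (r = 0.975, 0.922 and 0.909), and for S100a9 they were S100a8, Sult1c2 and Chil3 (r = 0.975, 0.940 and 0.938).

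**Figure D5:**
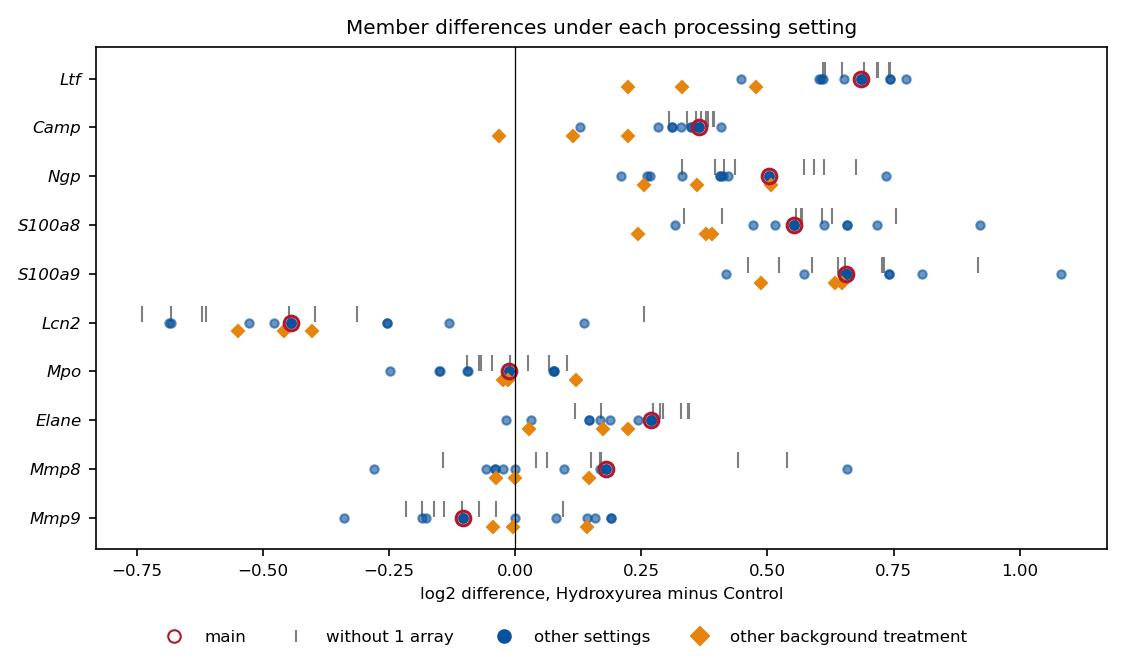
Log2 difference of each member, Hydroxyurea minus Control, under the processing of the report (open red circles) and under 24 other settings (grey ticks leave out 1 array, orange diamonds treat the background in another way, blue points are the rest). Ltf, Ngp, S100a8 and S100a9 stay above 0 in every setting shown, Camp is at -0.03 and Elane at -0.02 in 1 of them each, and Lcn2, Mpo, Mmp8 and Mmp9 lie on both sides of 0. Settings that only leave out mice could not turn the sign of Ltf or Camp, whose groups did not overlap.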

How the data were processed

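Per the file headers, Feature Extraction 12.0.3.1 made the spot values, and its processed intensity per spot has the background taken off but no normalization across arrays. Median intensity of spot and local background, and detection flags, are in the same deposited files. The authors also deposited a table of z scores, taken per array over log signals of 62976 features, and a recomputed z score matched it within 0.00502. Its column medians are -0.21 to -0.17, and it was used for counts only. The header build, mm9, differs from that of the RefSeq names and promoters, GRCm38.p6.

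Of 55681 non-control probes, 28331 matched 1 gene by RefSeq accession. Levels are log2 processed signal minus the 75th percentile of the array. The probe with the highest mean stood for a gene. Testing required 4 or more of 8 arrays well above background and 6 or more with a value. Probes well above background were 59.6% to 69.0% on Hydroxyurea and 62.1% to 76.7% on Control arrays, and 0 spots were saturated. The arrays correlated at 0.981 to 0.997. Signal over background and 4 arrays per group limit the precision.

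Groups were compared with limma 3.58.1 (R 4.3.3) on 16618 genes, with two-sided p-values adjusted by Benjamini-Hochberg and a threshold of 0.05. Age used 3 group means. Single array measures had exact two-sided permutation tests. The fit was tested on simulated data. The members, lists, tests and named genes (all members, up to 3 genes per list and direction by unadjusted p, and the 3 genes nearest by r) were chosen with earlier results of these data known. Blood cell markers were named where their groups did not overlap, beside other genes of the same lists. Alternatives covered scaling, background, filter, probe choice, covariates, block and each mouse left out. The mean spot signal was not used here, so normexp ran on the median signal, with quantile normalization after it. Some items may not be reported here.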

Additional observations from a re-analysis of the deposited data

Results flagged for a closer look

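Lcn2 in Control 3 had a scaled log2 level of 0.395, where the other Control mice had -2.59 to -2.21 and the Hydroxyurea mice -2.55 to -1.63. It was singled out because its gap to the nearest Control mouse was 0.873 of the whole range of the group, past Dixon's 95% limit for 4 samples. The rule was applied to 28 groups and marked 1 of them, and chance alone marks about 1 in 20.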

How the results depend on the processing

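Each member's difference was recomputed under 24 other settings, and counts under 25. Ltf stayed positive in 24 of 24 (0.22 to 0.77), as did Ngp (0.21 to 0.74), S100a8 (0.24 to 0.92) and S100a9 (0.42 to 1.08), and Camp in 23 of 24. For Ltf and Camp, whose groups did not overlap, settings that only leave out mice could not turn the sign. The age covariate could not either, since it gave the value of the 19-week mice. For Ltf the block, the mean over probes and both filter settings repeated the reported value. Nothing is read from these counts. The count of members with a higher mean ran from 5 to 9, where 7 is reported. The median member difference, 0.32, was 0.08 without scaling and 0.013 for spot over local background without scaling, settings that put the median of all genes at -0.24 and -0.13. In 25 of 25 settings 0 genes had a limma adjusted p under 0.05 for treatment. For age the count was 0 to 7 with single mice left out, 1 without Hydroxyurea 3 and 7 without Hydroxyurea 4, fits that leave 1 treated mouse of 19 weeks, assumed to vary like the other groups. The local background difference of all spots, 0.19, was -0.003 to 0.295 with single mice left out, turning sign without Hydroxyurea 2, and -0.048 without scaling, and that of member spots was -0.035 without scaling. The cause was not tested. The share of higher calls at an unadjusted limma p under 0.05 was 35.7%, against 9.24% with median centring, 12.7% without scaling, 25.3% for spot over local background, 49.4% for that ratio scaled, 56.3% with the negative control covariate and 60.7% without the filter. The replicate numbers do not pair the mice (deviations of the same number correlated at 0.053, 0.20, -0.211 and -0.058, best with its own number for 2 of 4). With the replicate block the Ltf and Camp differences were 0.69 and 0.36, fixed by the balanced design, with 0 genes called and 563 higher and 754 lower at an unadjusted p under 0.05, where 586 and 1057 are reported. The scaled ratio, the common floor, the pixel ratio of negative controls and the fit without Control 1 and Hydroxyurea 2 were chosen after seeing the data. Dim signal limits Ltf, Ngp, Mpo and Mmp9, and Mmp8 has no usable level.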

Other observations

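Control 3, the mouse with high Lcn2, was followed up after its values were seen. Among the genes tested, 22 were at least 1 log2 unit higher in Control 3 than in every other mouse, where the same count was 39, 37, 40 and 120 in Hydroxyurea mice 1 to 4 and 8, 4 and 5 in Control mice 1, 2 and 4. Lcn2 ranked 7 among these genes by its gap of 2.02 log2 units to the next mouse. The 4 with the largest gaps were Tent5b (5.58), Pygo1 (3.27), Accsl (3.26) and Atp8b3 (2.92).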
